A study of Homo sapiens with 16 samples.

Results

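The genes of sterol and fatty acid synthesis were followed through H3K27ac, the acetyl mark that active promoters and enhancers carry on histone H3, in THP-1 cells, a human monocytic leukemia line. The list held 35 genes chosen by name and pathway. A region belonged to the set when its nearest gene was on the list and its centre lay at most 10000 bp from a start (TSS) of that gene. This gave 92 of the 151654 regions of the series, at 34 of the 35 genes. NSDHL, which removes carbon from a sterol ring on the way to cholesterol, had no region. Each region is a window of 1000 bp around an ATAC-seq peak and is named here by its gene and the distance of its centre from the nearest RefSeq start, so that GGPS1 −97 lies 97 bp upstream. Of the 92, 48 were annotated as promoter, 33 as intron, 7 as intergenic and 4 as transcript end or UTR. Some windows overlapped: 34 of the 92 shared bases with another window of the set, and the 92 formed 73 separate stretches, so neighbouring windows of a gene are not independent.

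H3K27ac was measured by ChIP-seq in 4 groups of 2 libraries: WT cells untreated, WT cells with IFNα, USP18−/− cells untreated and USP18−/− cells with IFNα. IFNα was given at 1000 U/ml for 6 h. USP18 binds the type I interferon receptor and dampens its signal. The WT cells are labelled as carrying Cas9 only (the treatment protocol names a control guide), and the gene in USP18−/− cells was cut with lentiviral CRISPR before single cells were sorted and expanded. The effect of the deletion and the history of the sorted line cannot be told apart in a genotype comparison. The study describes the libraries of a group as independent biological samples, without saying how they were kept apart, and p-values measure the spread between them.

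SREBP transcription factors, encoded by SREBF1 and SREBF2, are made as membrane proteins bound to SCAP and held in the endoplasmic reticulum by INSIG proteins while sterols are plentiful. When sterols fall, SCAP carries them to the Golgi, where they are cut, and the freed part switches on the enzymes of cholesterol and fatty acid synthesis in the nucleus. Oxysterols act through a second factor, LXR, which raises cholesterol export. In macrophages, type I interferon is known to induce CH25H, which makes an oxysterol that blocks SREBP.

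The hg38 sequence of the windows was searched on both strands for 4 sets of letters: TCACNCCAC (a sterol regulatory element, where SREBP binds), TCACGTGA (an E-box, also bound by SREBP), AGGTCA repeated after 4 bases (the LXR type) and GAAA repeated after 2 bases (the core of an interferon response element). The first was found in 10 of the 91 tested windows of the set (11%) and in 6.32% of all 123276 tested windows. The E-box stood in 3 windows (3.3%, against 1.03% of all), the AGGTCA repeat in 0 (against 0.0827% of all) and the GAAA repeat in 9 (9.89%, against 17.1% of all). The 3 E-box windows hold 2 separate sites. Of all tested windows within 10000 bp of a start, 6.05%, 1.49%, 0.045% and 13.5% held the 4 sets, in the order listed. Windows that overlap can share a match. These shares are descriptions, and a match is not a shown binding site. The stretches below are a choice from the start windows and the called windows described in the results. They read 5′ to 3′ on the strand of the gene, with the matched letters in capitals.

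The sterol regulatory element letters stood at SREBF2 and HMGCS1, among other windows, and the E-box at INSIG1 and PMVK. The SREBF2 stretch is chr22:41832962-41832990 on the plus strand, HMGCS1 chr5:43313623-43313711 minus, INSIG1 chr7:155297811-155297840 plus and PMVK chr1:154936501-154936588 minus. The SREBF2 and INSIG1 matches lie in annotated exons and are printed with short flanks.
SREBF2: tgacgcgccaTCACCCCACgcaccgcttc
HMGCS1: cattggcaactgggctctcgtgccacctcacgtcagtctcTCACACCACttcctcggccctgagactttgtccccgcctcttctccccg
INSIG1: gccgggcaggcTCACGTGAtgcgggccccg
PMVK: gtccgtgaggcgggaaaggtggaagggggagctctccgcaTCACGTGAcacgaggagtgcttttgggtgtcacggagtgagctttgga

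The GAAA repeat stood in the start windows of STARD4 (2 matches) and GGPS1. It also stood in 4 windows away from a start that were called higher with IFN in USP18−/− cells: a pair at LPIN1 that shares 1 match, 1 at TM7SF2 and 1 in an intron of GGPS1. The remaining windows with a match were HSD17B7 −1731, HSD17B7 +9733 and ABCG1 −4068. None of these was called for IFN in either genotype, and their stretches are not printed. On the strand of the gene a match on the other strand reads as a TTTC repeat. The STARD4 stretches are chr5:111512820-111512909 and, in an exon, chr5:111512183-111512212, both minus. GGPS1 is chr1:235328339-235328398 plus, with its intronic stretch at chr1:235337088-235337153. LPIN1 is chr2:11753746-11753835 plus. The TM7SF2 stretches are chr11:65104885-65104974 and chr11:65105034-65105123 plus.
STARD4 upstream: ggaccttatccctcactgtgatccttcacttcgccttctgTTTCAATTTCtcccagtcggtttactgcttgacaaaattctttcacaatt
STARD4 exon: cctcacagatGAAAGAGAAAcctgagcccc
GGPS1 upstream: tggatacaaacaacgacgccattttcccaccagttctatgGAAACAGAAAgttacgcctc
GGPS1 intron: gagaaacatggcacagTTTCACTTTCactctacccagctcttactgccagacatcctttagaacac
LPIN1 intron: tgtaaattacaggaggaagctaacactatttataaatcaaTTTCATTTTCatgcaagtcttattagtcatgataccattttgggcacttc
TM7SF2 first: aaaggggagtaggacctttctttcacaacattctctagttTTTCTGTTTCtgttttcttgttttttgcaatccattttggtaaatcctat
TM7SF2 second: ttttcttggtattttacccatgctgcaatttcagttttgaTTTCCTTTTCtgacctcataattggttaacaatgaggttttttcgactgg

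The start windows of SREBF1, HSD17B7 and EBP were called between genotypes and held none of the 4 sets of letters, so the 140 bases before the start are shown. They are chr17:17823665-17823804 minus for SREBF1, chr1:162790562-162790701 plus for HSD17B7 and chrX:48521636-48521775 plus for EBP.
SREBF1: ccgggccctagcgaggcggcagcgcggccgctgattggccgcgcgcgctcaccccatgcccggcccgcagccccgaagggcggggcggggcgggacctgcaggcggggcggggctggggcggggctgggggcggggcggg
HSD17B7: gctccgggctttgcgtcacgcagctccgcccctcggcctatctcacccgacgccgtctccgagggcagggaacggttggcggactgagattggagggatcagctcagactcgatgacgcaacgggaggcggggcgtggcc
EBP: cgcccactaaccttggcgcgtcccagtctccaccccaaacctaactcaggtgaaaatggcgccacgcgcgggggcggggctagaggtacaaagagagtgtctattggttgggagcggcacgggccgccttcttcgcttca

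Tags in the regions summed to between 9046141 and 12935453.5 per library. Levels below are in CPM, counts scaled to a common library size after the TMM adjustment of edgeR. The USP18 start window, which tests the response and not the deletion, went from 7.85 and 7.62 CPM in WT cells to 18.0 and 15.0 with IFN. In USP18−/− cells it went from 8.20 and 8.47 to 49.2 and 41.7. Of the marker lists for the line, the nearest windows of 8 of 8 monocytic genes were covered, with a summed level from 145.0 to 157.0 CPM in WT libraries and from 201.4 to 213.1 in USP18−/− libraries, so this sum moves with genotype. Most of the rise was at SPI1 (64.6 to 74.5 CPM in WT and 98.7 to 130.6 in USP18−/− libraries) and, untreated, CEBPA (32.9 and 36.9 against 49.2 and 53.0). CD14 was also higher, at 3.18 to 4.96 CPM in WT and 7.16 to 8.83 in USP18−/− libraries. Not all markers followed in both conditions. With IFN, LYZ held 11.0 and 11.4 CPM in WT cells and 4.6 and 5.68 in USP18−/− cells. Untreated, LYZ was higher in USP18−/− cells, at 14.3 and 12.9 CPM against 12.2 and 11.4. ITGAM held 10.1 and 12.1 CPM in WT cells with IFN against 8.25 and 8.64, and overlapped untreated. FCGR1A, untreated, held 8.99 and 9.71 CPM in WT cells against 5.97 and 7.33, and overlapped with IFN. The part of these genes in the genotype results was not tested. B cell genes were not near 0, with CD79A at 4.51 to 7.51 CPM and MS4A1 at 3.93 to 9.48. The T cell list (2 of 3 covered) summed to 0.9 to 3.2 CPM, the erythroid list (1 of 3) to 0.1 to 0.6 and the epithelial list (2 of 3) to 0.5 to 2.5. CD3G, GATA1, KLF1 and EPCAM had no window within 10000 bp.

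Of the 92 regions, 91, at 33 genes, reached 10 counts in 2 or more libraries and were tested. The exception was CH25H −6097, the only window of CH25H within 10000 bp of its start, with 0 to 5 counts per library. It lay between 0.0 and 0.5 CPM, while 3 counts equal 0.258 to 0.305 CPM in these libraries, and no fold is given. Within this distance, CH25H could not be followed at this depth, and windows farther away were not part of the set.

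Among the start windows, the tested window nearest a start of each gene, levels ran from 126 CPM (the mean over the 8 libraries) at PMVK, a kinase of the mevalonate route, down to 0.91 CPM at ABCG1, a cholesterol exporter. Windows have the same length, but the input libraries were not analysed, so the order of genes is a description. PMVK stood above 99.7% of the start windows of all genes and ABCG1 above 12.5%. FDPS (mean 62.8 CPM), GGPS1 (47.0), FADS2 (42.6), FDFT1 (41.7), SREBF2 (41.0), FASN (40.7), CYP51A1 (40.2) and INSIG1 (39.5) followed PMVK. The lowest after ABCG1 were TM7SF2 (1.76), SC5D (3.32), INSIG2 (3.38) and HSD17B7 (3.65). The median of the 33 start windows was 20.9 CPM, and the median over the start windows of 18795 genes was 6.90 CPM. The values of FDPS, GGPS1 and FADS2 did not overlap with PMVK in any library. Over the 8 libraries, FDPS (53.9 to 70.2 CPM) and GGPS1 (29.1 to 79.6) overlapped each other, and GGPS1 overlapped FADS2. The ranges of FADS2, FDFT1, SREBF2, FASN, CYP51A1 and INSIG1 also overlapped.

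**Figure D1:**
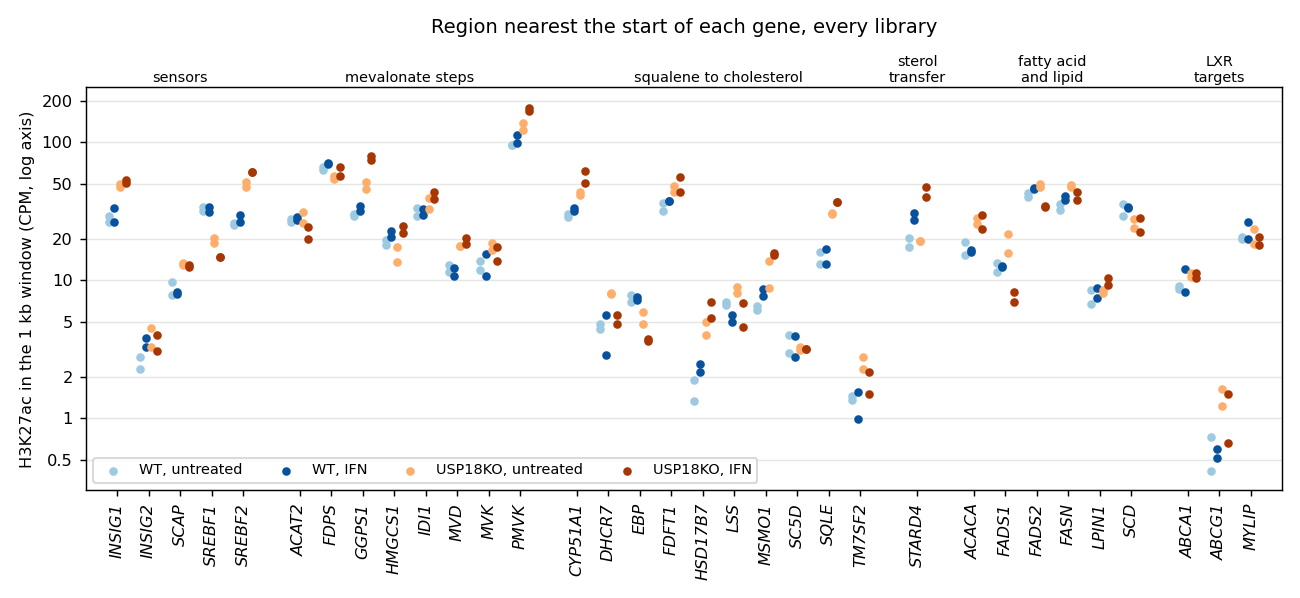
H3K27ac (CPM, log axis) in the window nearest the start of each of 33 genes, grouped by role, with a point for each of the 8 libraries coloured by group. PMVK is highest at 126 CPM on average and ABCG1 lowest at 0.91, and the 2 points of a group usually lie close together.

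Every region was tested in one fit over all 8 libraries, and it is called here when it changed over 2-fold with an adjusted p under 0.05 (edgeR's quasi-likelihood test, Benjamini-Hochberg adjustment over 123276 regions). The genotype comparisons share libraries with the IFN comparisons, so their values are given side by side. Over all 5 comparisons, 23 of the 91 regions (25.3%), at 14 genes, were called at least once, against 33.9% of all tested regions and 29.2% of those within 10000 bp of a start.

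In WT cells, IFN left the set without a call. By edgeR 0 of 91 regions were called higher and 0 lower, and DESeq2 also called 0 in each direction, with no adjusted p for 30. Over all tested regions 0.344% were called higher and 0.0381% lower. At any fold, 1 of the 91 passed an adjusted p of 0.05, upward, and 0 downward, against 0.653% and 0.153% of all regions. At an unadjusted p under 0.05 there were 5 upward and 1 downward. The median log2 fold change of the set was 0.07, against −0.01 over all regions. The region that passed was STARD4 −58, at the start of the gene for a protein that carries cholesterol between membranes.

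STARD4 −58 held 17.6 and 20.2 CPM in untreated WT cells and 30.7 and 27.4 with IFN. In USP18−/− cells it went from 19.4 and 19.2 to 47.0 and 40.4 CPM. The IFN-treated libraries lay above the untreated ones in both genotypes, and the untreated genotypes overlapped. The rise with IFN was 0.62 (log2) among WT libraries (SE 0.13, adjusted p = 0.0017 by edgeR) and 1.18 among USP18−/− libraries (SE 0.12, adjusted p = 5.0e-14 by edgeR). The difference between these 2 effects was 0.57 (SE 0.18, adjusted p = 0.02 by edgeR), under 2-fold. With any 1 library left out, the USP18−/− effect stayed between 1.04 and 1.29. This window holds 2 of the GAAA repeats printed above.

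In USP18−/− cells, IFN called 6 regions higher, at 4 genes, and 1 lower. Over all regions 7.14% were called higher and 4.28% lower, and within 10000 bp of a start 5.73% and 3.11%, so 6 and 1 of 91 (6.59% and 1.10%) are near or under the background. The number called lower was 3 without any 1 of the 4 USP18−/− libraries, 5 when scaled by the sum of counts and 4 by tag directory totals, beside 5 called higher under each of these scalings. At any fold 19 regions were higher and 15 lower (20.9% and 16.5%), against 13.0% and 11.2% of all regions. Within 10000 bp of a start these shares were 15.4% and 11.2%. The median level was 10.3 CPM in the set, 4.66 CPM near starts and 2.24 CPM over all regions. At higher counts smaller changes pass, and the part of this in the any-fold shares was not tested. The median of the set was −0.02 and that of all regions −0.01. Besides STARD4 the regions called higher were 3 overlapping windows at LPIN1, GGPS1 +8544 and TM7SF2 −6718, and the region called lower was FADS1 +54. A GAAA repeat stood in 5 of the 6 windows called higher, the pair at LPIN1 sharing 1 match, and in 47% of all regions called higher here.

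LPIN1 makes a phosphatase that turns phosphatidic acid into diacylglycerol. Its 3 windows in intron 1 lie on chromosome 2 between 11753225 and 11754892. LPIN1 +5500 held 13.3 and 13.7 CPM in untreated WT cells and 14.3 and 13.9 with IFN. In USP18−/− cells it held 7.77 and 8.76 CPM untreated and 17.5 and 20.1 with IFN. Untreated USP18−/− cells were thus the lowest group and IFN-treated USP18−/− cells the highest, without overlap. The IFN effect in USP18−/− cells was 1.19 on the log2 scale (SE 0.16, adjusted p = 1.9e-09 by edgeR) and in WT cells 0.06, and the difference was 1.12 (SE 0.23, adjusted p = 9.0e-05 by edgeR).

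LPIN1 +5192 and +5859 gave IFN effects of 1.16 and 1.07 in USP18−/− cells, with differences from WT cells of 0.96 and 1.20. In untreated cells the 3 windows were lower in USP18−/− than in WT cells by 0.81, 0.71 and 0.83 on the log2 scale, read in order of distance (adjusted p from 8.2e-05 to 0.00035 by edgeR, each under 2-fold). With IFN they were at 0.15, 0.41 and 0.38. The call at +5859 in USP18−/− cells was lost without USP18−/− IFN replicate 1, at 0.97, when scaled by the sum of counts, at 0.93, and by tag directory totals, at 0.999. The start window of LPIN1, at +41, passed no test: it held 6.72 to 10.4 CPM over the 8 libraries. Upstream, LPIN1 −7898 and −7403, which overlap, were called lower in USP18−/− than in WT cells with IFN, at −1.30 (SE 0.38, adjusted p = 0.003) and −1.33 (SE 0.40, adjusted p = 0.0039 by edgeR). At −7898 the values were 1.14 and 1.63 CPM in untreated WT cells, 2.87 and 2.77 with IFN, 1.31 and 1.83 in untreated USP18−/− cells and 1.07 and 1.22 with IFN. The IFN-treated WT libraries alone stood above the rest, but the IFN effect in WT cells of 1.01 there did not pass the test. Without USP18−/− IFN replicate 1, −7403 was at −1.10 and not called, nor was it by DESeq2 (−1.33).

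**Figure D2:**
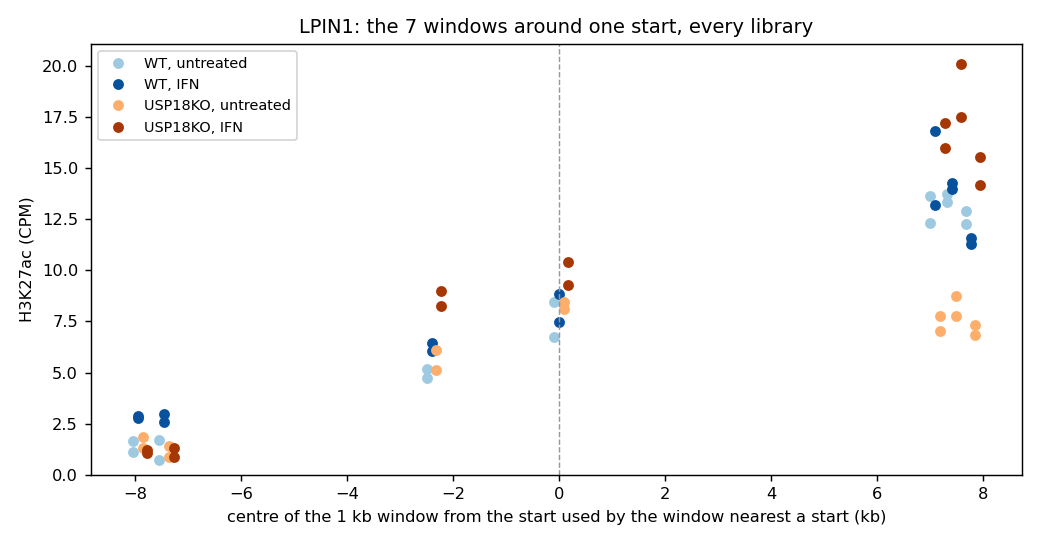
H3K27ac (CPM) in the 7 LPIN1 windows within 10 kb of the start used by the window at +41, against the distance of the window's centre from that start in kb, with a point for each library (groups offset sideways). Near 7 to 8 kb the untreated USP18−/− libraries (6.83 to 8.76 CPM) lie below the other libraries (11.3 to 20.1 CPM), and near −8 kb the WT libraries with IFN (2.56 to 2.97 CPM) lie above the others.

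TM7SF2 −6718 lies in an intron of VPS51, upstream of TM7SF2, a sterol reductase gene, and its nearest start does not show which gene it acts on. Its level was low: 0.93 and 1.36 CPM in untreated WT cells, 0.892 and 0.718 with IFN, 0.611 and 0.866 in untreated USP18−/− cells and 4.26 and 2.07 with IFN. Both IFN-treated USP18−/− libraries were above the other 6, and they differed from each other. The IFN effect in USP18−/− cells was 2.10 (SE 0.42, adjusted p = 2.8e-05 by edgeR) and its difference from WT cells 2.61 (SE 0.66, adjusted p = 0.0027 by edgeR). Without USP18−/− IFN replicate 1 these were 1.45 and 1.96 and neither was called, and the difference was also not called without WT untreated replicate 2, at 2.30. DESeq2 gave no adjusted p for the difference. The start window of TM7SF2, at 0.991 to 2.79 CPM, passed no test.

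GGPS1 makes geranylgeranyl pyrophosphate, the lipid that anchors small GTPases. GGPS1 +8544, in an intron, went from 1.92 and 1.06 to 3.11 and 3.57 CPM with IFN in USP18−/− cells, while WT cells held 0.793 to 1.54. The IFN effect was 1.14 (SE 0.35, adjusted p = 0.0081 by edgeR). It was not called without USP18−/− untreated replicate 2 (0.79), without USP18−/− IFN replicate 2 (1.04) or by DESeq2 (1.14). The 2 overlapping start windows rose with IFN in USP18−/− cells at less than 2-fold, by 0.66 at −97 and 0.65 at +365 (adjusted p = 3.3e-08 and 2.8e-08 by edgeR), and the differences from WT cells were 0.49 and 0.43 (adjusted p = 0.015 and 0.032 by edgeR). The start window also holds the start of ARID4B, on the other strand, so the 2 genes cannot be told apart there.

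FADS1 and FADS2 encode neighbouring desaturases that make long polyunsaturated fatty acids. The centre of FADS1 +54 lies over FADS2, and that of FADS2 −94 over FADS1. Their nearest starts do not show which gene each window acts on. FADS1 +54 held 11.6 and 13.3 CPM in untreated WT cells and 12.8 and 12.4 with IFN. In USP18−/− cells it fell from 15.8 and 21.8 to 6.92 and 8.17 CPM. Without IFN the USP18−/− libraries were the highest and with IFN the lowest of the 8. The IFN effect in USP18−/− cells was −1.31 (SE 0.17, adjusted p = 4.0e-10 by edgeR), in WT cells 0.01, and the difference was −1.32 (SE 0.24, adjusted p = 1.3e-05 by edgeR). Leaving out any 1 library kept the USP18−/− effect between −1.55 and −1.07.

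FADS2 −94 went from 49.5 and 47.3 to 34.6 and 34.0 CPM in USP18−/− cells and from 43.1 and 40.4 to 45.7 and 46.7 CPM in WT cells. Its difference of effects was −0.64 (SE 0.15, adjusted p = 0.00072 by edgeR), under 2-fold. FADS2 +6796, in intron 1 and holding 2 sterol regulatory element matches, showed a difference of −0.60 (SE 0.19, adjusted p = 0.029 by edgeR). It was called lower in USP18−/− cells with IFN, at 16.2 and 11.1 CPM against 28.6 and 30.2 in WT cells with IFN. That log2 fold change was −1.10 (SE 0.14, adjusted p = 9.6e-11 by edgeR), and without USP18−/− IFN replicate 2 it was −0.85 and not called.

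The difference of the IFN effects was called larger in USP18−/− cells at 4 regions and smaller at 2 (4.40% and 2.20%). Over all regions 4.66% and 2.51% were called, and within 10000 bp of a start 3.9% and 1.91%. At any fold 8 were larger and 5 smaller, against 6.84% and 5.22%. The median was −0.09, and 0.01 over all regions. Beside LPIN1 +5500 and +5859, TM7SF2 −6718 and FADS1 +54, the calls were PMVK +54 and ABCG1 −78. PMVK +54, at a second start upstream of the main one, held 8.78 and 11.1 CPM in untreated WT cells and 9.51 and 8.72 with IFN. In USP18−/− cells it went from 10.0 and 8.57 to 19.5 and 15.7 CPM. When scaled by the sum of counts the set had 2 larger and 3 smaller. At PMVK +54 the difference was 1.05 (SE 0.25, adjusted p = 0.0011 by edgeR). It fell below 2-fold without WT untreated replicate 2 (0.86), WT IFN replicate 2 (0.99), USP18−/− untreated replicate 2 (0.94) or USP18−/− IFN replicate 1 (0.84).

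ABCG1, an LXR target that exports cholesterol, has several starts. ABCG1 −78, at an upstream start, held 3.51 and 1.91 CPM in untreated WT cells, 3.47 and 2.77 with IFN, 10.5 and 7.89 in untreated USP18−/− cells and 5.06 and 4.51 with IFN. Untreated USP18−/− cells were the highest group, without overlap. The log2 difference from the untreated WT group was 1.78 (SE 0.25, adjusted p = 4.0e-09 by edgeR), and IFN lowered the region in USP18−/− cells by 0.94 (adjusted p = 0.00038 by edgeR, under 2-fold). The difference of effects was −1.17 (SE 0.37, adjusted p = 0.025 by edgeR), and this call was lost without WT untreated replicate 2 (−0.77), WT IFN replicate 1 (−1.0), USP18−/− untreated replicate 1 (−0.98) or USP18−/− IFN replicate 2 (−1.09), and by DESeq2 (−1.18). ABCG1 −4068 was at 1.06 untreated and 1.02 with IFN between genotypes (adjusted p = 0.0073 and 0.021 by edgeR). The first call was lost without WT untreated replicate 2 (1.00) or USP18−/− untreated replicate 2 (0.89), and by DESeq2 (1.08). The second was lost without WT IFN replicate 1 (0.93), WT IFN replicate 2 (1.10), USP18−/− untreated replicate 1 (0.98) or USP18−/− IFN replicate 2 (0.63), and by DESeq2 (1.02). The start window by rule, ABCG1 −16, held 0.413 to 1.64 CPM and passed no test.

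**Figure D3:**
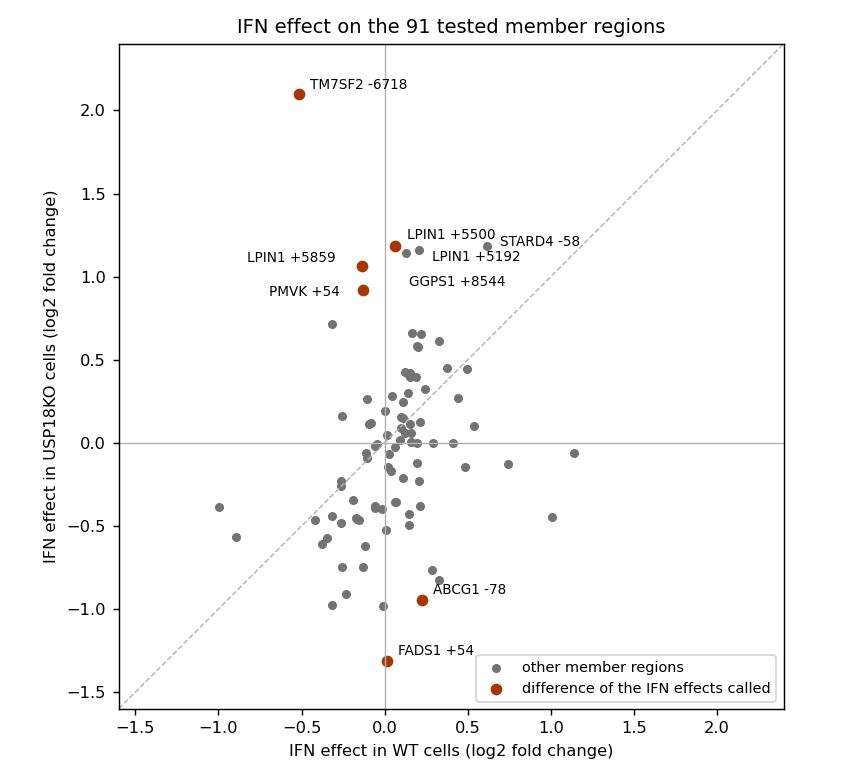
IFN effect (log2 fold change) on each of the 91 tested regions in WT cells (horizontal) and in USP18−/− cells (vertical), with the 6 regions whose difference of effects was called in the larger, darker points and the diagonal dashed. TM7SF2 −6718 lies highest at 2.10 and FADS1 +54 lowest at −1.31 in USP18−/− cells, while the same regions were at −0.51 and 0.01 in WT cells.

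Between untreated genotypes, 4 regions were called higher and 1 lower in USP18−/− cells (4.40% and 1.10%). Over all regions 5.66% and 10.8% were called, and within 10000 bp of a start 6.87% and 6.49%. At any fold 29 were higher and 7 lower (31.9% and 7.69%). Over all regions these shares were 16.9% and 16.8%, and within 10000 bp of a start 28.1% and 12.1%. The median of the set was 0.30, that of all regions −0.02 and that of regions within 10000 bp of a start 0.195. Of the 33 start windows, 16 were higher and 2 lower at any fold (48.5% and 6.06%), with a median of 0.46, against 33.0% and 9.14% and a median of 0.272 over the start windows of all genes. With regions within 3000 bp of a start scaled alone, the median of the set fell to 0.11. The calls were 2 higher and 1 lower when scaled by the sum of counts, and the region called lower was lost without USP18−/− untreated replicate 2.

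With IFN in both genotypes, 9 regions were called higher and 7 lower in USP18−/− cells (9.89% and 7.69%). Over all regions 11.3% and 13.4% were called, and within 10000 bp of a start 13.3% and 8.37%. At any fold there were 33 and 14 (36.3% and 15.4%), against 21.3% and 19.4% of all regions and 32.0% and 14.7% of those within 10000 bp of a start. The median was 0.25, against 0.00 over all regions and 0.219 within 10000 bp of a start. It moved to −0.03 when scaled by the sum of counts and to 0.03 when regions within 3000 bp of a start were scaled alone, so the direction of the set as a whole depends on the scaling. The calls were 4 higher and 9 lower when scaled by the sum of counts and 6 and 8 by tag directory totals. Scaling by the sum of counts also moved the median over all regions, to −0.27.

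By role, counted by window, the regions of the mevalonate steps and of squalene to cholesterol were most often higher in USP18−/− cells. Of 21 mevalonate regions, 10 were higher and 0 lower untreated at any fold, and 14 and 1 with IFN, with medians of 0.42 and 0.54. Of 20 regions from squalene to cholesterol, 9 were higher and 0 lower untreated, and 9 and 1 with IFN, with medians of 0.51 and 0.38. Of 24 regions at fatty acid and glycerolipid genes, 4 were higher and 6 lower untreated, and 3 and 9 with IFN, with medians of −0.05 and −0.12. The sensors had 4 of 13 higher and 1 lower untreated, and 4 and 3 with IFN. At the LXR targets 2 of 12 were higher and 0 lower in each comparison. Of all regions 16.9% were higher and 16.8% lower untreated and 21.3% and 19.4% with IFN, and near starts 28.1% and 12.1%, and 32.0% and 14.7%. Windows of a gene overlap (PMVK gave 6 of the mevalonate regions and IDI1 5), and no difference between roles was tested. Counted by start window, the order was not the same. Untreated, 4 of 8 mevalonate and 6 of 10 squalene to cholesterol start windows were higher at any fold. So were 3 of 5 of the sensors, 3 of 6 of the fatty acid genes and 0 of 3 LXR targets. With IFN these were 4, 5, 3, 1 and 0 in the same order. Over the start windows of all genes 33.0% were higher at any fold untreated and 36.9% with IFN.

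**Figure D4:**
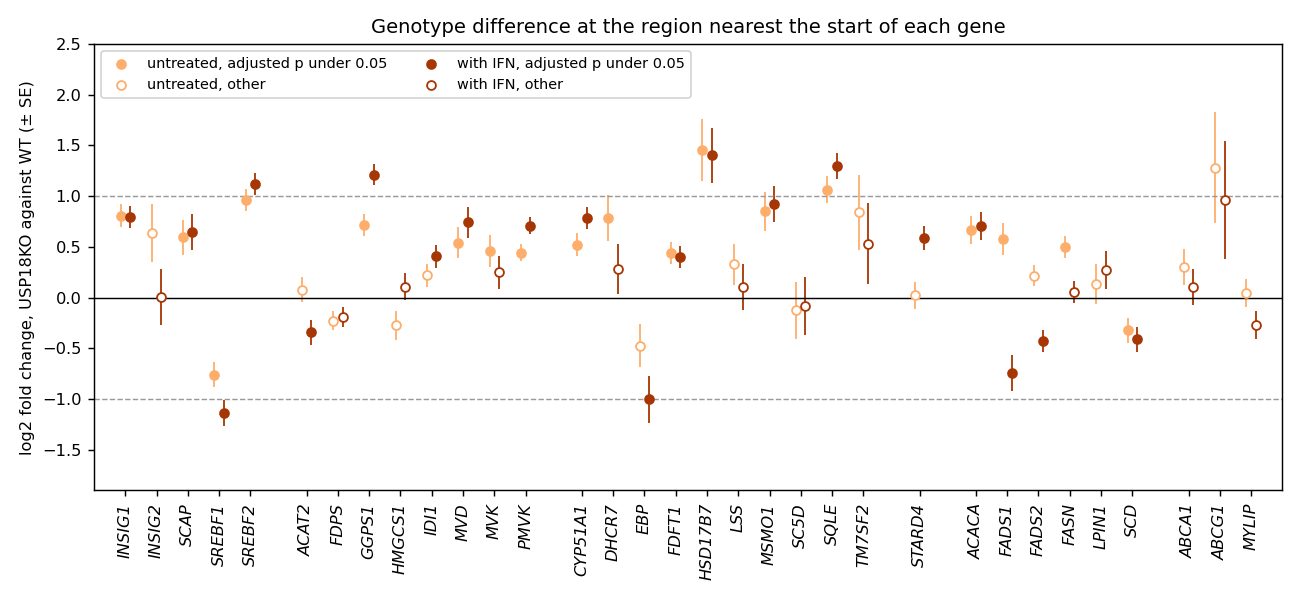
Log2 fold change of USP18−/− (USP18KO) against WT cells, with its SE, at the window nearest the start of each of 33 genes, untreated and with IFN. Filled points passed an adjusted p of 0.05 and dashed lines mark 2-fold. Most points lie above 0, with SQLE, HSD17B7, SREBF2 and GGPS1 past 2-fold with IFN, and SREBF1 and EBP at −1.14 and −1.0.

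Among the sensors, SREBF2, the SREBP of cholesterol synthesis, held 25.8 and 25 CPM at its start in untreated WT cells, 26.4 and 29.7 with IFN, 51.4 and 47.5 in untreated USP18−/− cells and 60.9 and 61.0 with IFN. All 4 USP18−/− libraries lay above all 4 WT libraries. The log2 fold change was 0.96 untreated (SE 0.11, adjusted p = 5.5e-12 by edgeR) and 1.12 with IFN (SE 0.11, adjusted p = 1.5e-15 by edgeR), and only the second was over 2-fold. It fell to between 0.75 and 0.84 with other scalings (sum of counts, loess offsets, regions near starts alone). The median of the regions within 5000000 bp was 0.16, and 0.96 remained after taking it off.

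SREBF1 encodes the SREBP of fatty acid synthesis. SREBF1 −108, at a start inside the gene, held 34.0 and 31.7 CPM in untreated WT cells, 33.8 and 31.0 with IFN, 20.2 and 18.6 in untreated USP18−/− cells and 14.6 and 14.7 with IFN. All USP18−/− values were below all WT values. The log2 fold change was −0.76 untreated (SE 0.12, adjusted p = 3.5e-07 by edgeR) and −1.14 with IFN (SE 0.13, adjusted p = 1.9e-12 by edgeR). The regions within 5000000 bp had medians of −0.74 and −0.86 in the same comparisons, and less these medians the fold change with IFN was −0.28. The part of this shared shift on chromosome 17 in the result was not tested. SREBF1 +647, in intron 1 near the upstream start, held 34.6 to 42.0 CPM and passed no test. The other 2 windows passed at less than 2-fold. SREBF1 −3210 was at −0.36 between genotypes with IFN (adjusted p = 0.0023 by edgeR). SREBF1 +3791 was at −0.64 there (adjusted p = 0.04997 by edgeR) and at −0.75 for IFN in USP18−/− cells (adjusted p = 0.027 by edgeR).

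INSIG1, which retains SCAP when sterols are high and is itself an SREBP target, held 26.3 to 33.2 CPM at its start in WT libraries and 47.6 to 52.9 in USP18−/− libraries. The genotype difference was 0.81 untreated and 0.80 with IFN (adjusted p = 3.3e-09 and 1.8e-09 by edgeR), and IFN effects were 0.10 and 0.09. SCAP was higher by 0.60 and 0.65 (adjusted p = 0.0039 and 0.0016 by edgeR). Its intronic region at +9811 fell with IFN in USP18−/− cells by 0.97 (SE 0.21, adjusted p = 0.00017 by edgeR), from 7.59 and 10.8 to 5.33 and 3.94 CPM. INSIG2 held 2.27 to 4.54 CPM and passed no test.

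In the mevalonate steps, GGPS1 had the largest genotype difference at its start. GGPS1 −97 held 30.0 and 29.1 CPM in untreated WT cells, 34.6 and 31.7 with IFN, 51.4 and 45.7 in untreated USP18−/− cells and 74.0 and 79.6 with IFN. The groups of the 2 genotypes did not overlap, and the treated USP18−/− libraries were highest. The difference was 0.72 untreated (SE 0.11, adjusted p = 2.8e-08 by edgeR) and 1.21 with IFN (SE 0.10, adjusted p = 4.7e-18 by edgeR). It was 0.81 to 0.93 with IFN under the 3 other scalings named for SREBF2. GGPS1 +365 was at 1.00 with IFN, on the threshold, and its call held under 6 of 18 alternatives. Leaving out 1 library moved it to between 0.97 and 1.02, and it was lost without either untreated WT library (1.00 each), WT IFN replicate 2 (0.98), USP18−/− untreated replicate 1 (0.97), USP18−/− IFN replicate 1 (1.00) or replicate 2 (0.98). GGPS1 +8544 was called at 1.51 (SE 0.37, adjusted p = 0.00044 by edgeR).

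PMVK, which adds the second phosphate to mevalonate, held 95.3 to 114 CPM at +29 in WT libraries and 122, 138, 169 and 178 in USP18−/− libraries. The differences were 0.44 and 0.71 (adjusted p = 5.9e-06 and 2.7e-12 by edgeR), and IFN raised it by 0.42 in USP18−/− cells (adjusted p = 1.2e-05 by edgeR). HMGCS1, which makes HMG-CoA, rose with IFN in USP18−/− cells by 0.58 (SE 0.14, adjusted p = 0.00052 by edgeR), from 17.5 and 13.7 to 24.7 and 22 CPM, while WT libraries ran from 18.1 to 22.7. Between genotypes it was at −0.27 and 0.11 and passed no test, in a stretch of chromosome 5 whose regions had medians of −0.88 and −0.76. MVD, the decarboxylase of the route, was higher in USP18−/− cells by 0.54 and 0.74 (adjusted p = 0.0026 and 2.6e-05 by edgeR), and MVK, the first kinase, by 0.46 untreated (adjusted p = 0.016 by edgeR), with 0.25 and no pass with IFN. FDPS, which makes farnesyl pyrophosphate, was at −0.23 and −0.19 and passed no test. ACAT2, which condenses acetyl-CoA, fell with IFN in USP18−/− cells by 0.36 (adjusted p = 0.025 by edgeR). The centre of this ACAT2 window lies over SOD2. IDI1, an isomerase with 5 windows, was at 0.22 untreated in its start window, −1 (adjusted p = 0.14, not passed), and higher by 0.41 with IFN (adjusted p = 0.0021 by edgeR). Its window at −20, at another start and over WDR37, was higher by 0.62 and 0.54 (adjusted p = 7.2e-08 and 1.0e-06 by edgeR). Its start window also holds the start of WDR37, and that of MVK the start of MMAB.

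From squalene to cholesterol, SQLE and HSD17B7 were called in both genotype comparisons. SQLE, the squalene epoxidase, held 16.1 and 13.2 CPM in untreated WT cells, 16.9 and 13.1 with IFN, 30.1 and 30.8 in untreated USP18−/− cells and 37.2 and 36.8 with IFN. All USP18−/− libraries were above all WT libraries, and the median of the surrounding regions was 0.01 in both comparisons. The log2 fold change was 1.06 untreated (SE 0.13, adjusted p = 1.9e-10 by edgeR) and 1.30 with IFN (SE 0.13, adjusted p = 1.8e-14 by edgeR). The untreated call was lost without WT untreated replicate 2, at 0.91, and with 3 other scalings, at 0.75 to 0.92. With IFN it was 0.95 when regions near starts were scaled alone.

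HSD17B7, a sterol ketone reductase, held 1.34 and 1.91 CPM at −181 in untreated WT cells, 2.48 and 2.15 with IFN, 4.97 and 4.04 in untreated USP18−/− cells and 6.92 and 5.35 with IFN. The genotypes did not overlap. The differences were 1.46 (SE 0.30, adjusted p = 5.3e-05 by edgeR) and 1.40 (SE 0.27, adjusted p = 9.3e-06 by edgeR), and both calls held under all 18 alternatives. HSD17B7 +9733, at 0.103 to 1.66 CPM, was called with IFN at 1.58 (SE 0.65, adjusted p = 0.041 by edgeR). It was lost under 8 of 16 alternatives, among them without WT IFN replicate 1 (1.24) or 2 (2.01), USP18−/− untreated replicate 1 (1.55) or USP18−/− IFN replicate 1 (1.54) or 2 (1.60), and DESeq2 gave it no adjusted p.

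EBP, a sterol isomerase on the X chromosome, moved the other way. Its start held 6.92 and 7.81 CPM in untreated WT cells, 7.23 and 7.59 with IFN, 4.80 and 5.87 in untreated USP18−/− cells and 3.64 and 3.76 with IFN. With IFN the difference was −1.0 (SE 0.23, adjusted p = 0.00016 by edgeR), and the median of the surrounding regions was 0.31. The call sat on the threshold and was lost without WT IFN replicate 2, at −0.97. Of the others, CYP51A1 (0.52 and 0.78), MSMO1 (0.85 and 0.92), both of which act on the methyl groups of lanosterol, and FDFT1 (0.44 and 0.40), the squalene synthase, were higher in USP18−/− cells in both comparisons, with adjusted p from 1.6e-09 to 0.0017 by edgeR. DHCR7, the last reductase, was higher untreated by 0.79 (adjusted p = 0.0037 by edgeR) and fell with IFN in USP18−/− cells by 0.62 (adjusted p = 0.027 by edgeR), from 8.03 and 7.99 to 4.79 and 5.63 CPM. LSS, the lanosterol synthase, fell by 0.57 there (adjusted p = 0.031 by edgeR). SC5D passed no test.

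Among fatty acid genes, ACACA, the carboxylase that makes malonyl-CoA, was higher in USP18−/− cells by 0.67 and 0.71 (adjusted p = 3.3e-05 and 8.7e-06 by edgeR). FASN, the synthase, held 35.9 and 32.4 CPM at −121 in untreated WT cells, 40.7 and 38.1 with IFN, 48.8 and 47.5 in untreated USP18−/− cells and 43.9 and 38.1 with IFN. It was higher without IFN by 0.50 (SE 0.11, adjusted p = 8.9e-05 by edgeR), and with IFN the difference was 0.06. The difference of IFN effects was −0.44 (SE 0.15, adjusted p = 0.043 by edgeR). The overlapping pair at −8141 and −7879, in the neighbouring gene CCDC57, fell with IFN in USP18−/− cells by 0.35 and 0.46.

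SCD makes monounsaturated fatty acids. SCD −7575 held 10.3 and 10.4 CPM in untreated WT cells, 8.42 and 8.92 with IFN, 5.76 and 4.14 in untreated USP18−/− cells and 4.44 and 3.85 with IFN, so the genotypes did not overlap. Both log2 fold changes were −1.06 (SE 0.20 and 0.22, adjusted p = 1.3e-05 and 2.7e-05 by edgeR). The untreated call was lost without USP18−/− untreated replicate 2 (−0.85) and the other without USP18−/− IFN replicate 2 (−0.96). The start window was lower by 0.32 and 0.41 (adjusted p = 0.033 and 0.0042 by edgeR). SCD −4456, at 0.751 to 2.97 CPM, was called at −1.02 with IFN (adjusted p = 0.03 by edgeR), but not without WT IFN replicate 1 (−0.64) or USP18−/− IFN replicate 2 (−0.59) or by DESeq2 (−1.03), and it was −1.70 without USP18−/− IFN replicate 1. At the other LXR targets, ABCA1, the main cholesterol exporter, held 8.21 to 12 CPM at its start and MYLIP, which degrades lipoprotein receptors, 18.0 to 26.3, and neither start passed a test. MYLIP +2061 was higher in USP18−/− cells with IFN by 0.71 (SE 0.13, adjusted p = 1.8e-06 by edgeR).

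**Figure D5:**
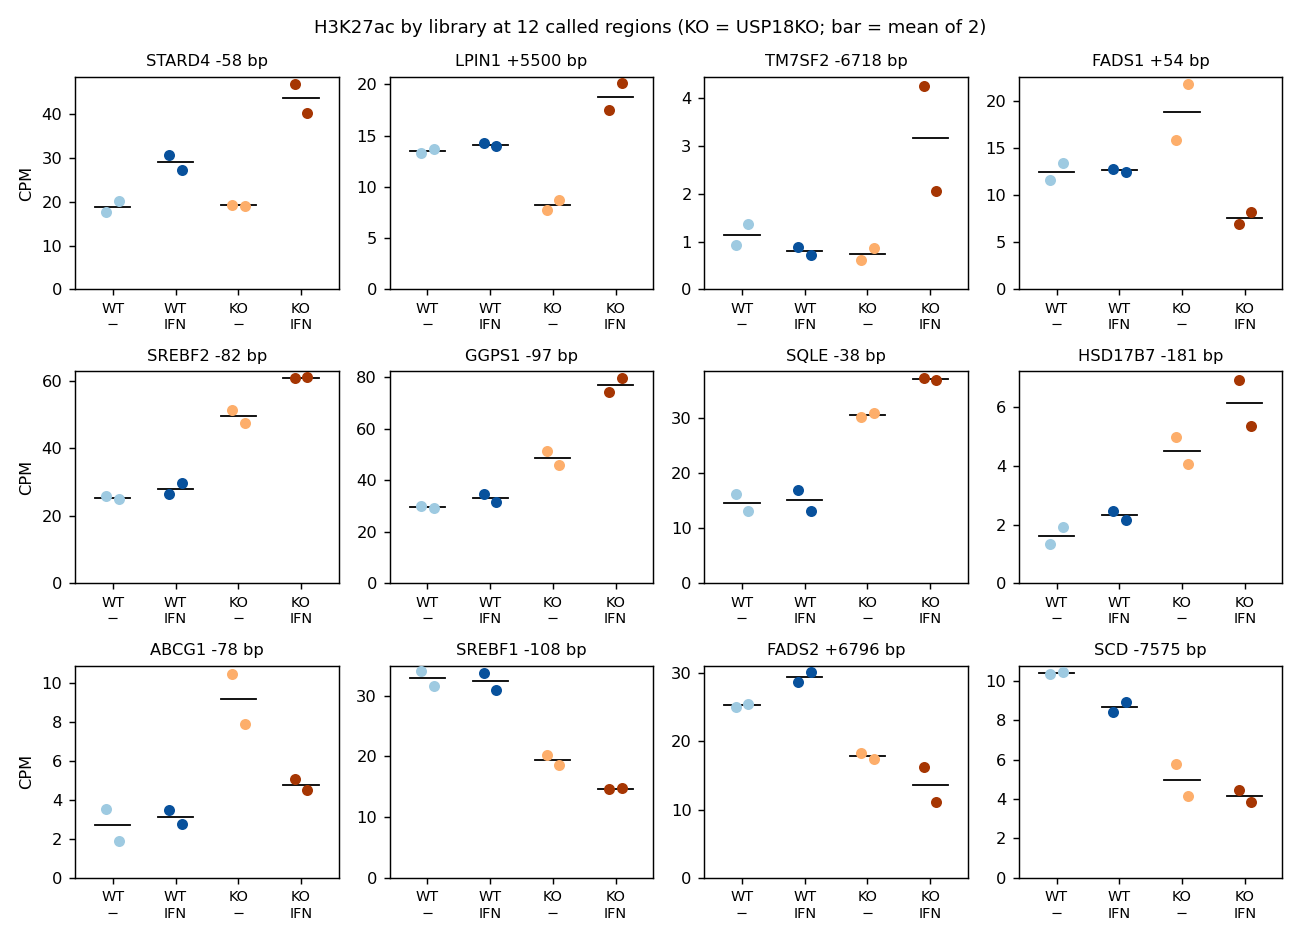
H3K27ac (CPM, axes from 0) by library at 12 called regions, with points for the 2 libraries of each group and a bar at their mean. IFN separates the USP18−/− groups at STARD4, LPIN1, TM7SF2 and FADS1, and also at SREBF2, GGPS1, SQLE, HSD17B7, ABCG1 and SREBF1. Genotype separates all WT from all USP18−/− libraries at SREBF2, GGPS1, SQLE, HSD17B7, ABCG1, SREBF1 and SCD.

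Of 24 further genes of the same pathways that were not on the list (LXR and RXR subunits, SREBP proteases, sterol transport and fatty acid enzymes), all had a region within 10000 bp and 63 of 67 regions were tested. IFN called 0 of them in WT cells by edgeR, with 4 at an unadjusted p under 0.05, and 0 by DESeq2, which gave no adjusted p for 23. In USP18−/− cells both tools called 0 higher and 3 lower: RXRA −2527 (−1.46), RXRA +855 (−1.29) and NR1H3 −6270 (−1.08). That is 0% and 4.76% of the 63, against 7.14% and 4.28% of all regions and 5.73% and 3.11% within 10000 bp of a start. RXRA is the partner of LXR, and NR1H3 encodes LXRα. The difference of effects was called at both RXRA regions, at −1.51 and −1.39. The windows nearest a start, RXRA −338 and NR1H3 +27, were at 0.29 and −0.13 for IFN in USP18−/− cells. Neither passed that test. RXRA −4594 was at −0.53 there (adjusted p = 0.0040 by edgeR), under 2-fold. Between genotypes 3 were higher and 3 lower untreated, and 5 and 6 with IFN. These are 4.76% and 4.76%, and 7.94% and 9.52%, against 5.66% and 10.8%, and 11.3% and 13.4%, of all regions. Within 10000 bp of a start the shares were 6.87% and 6.49% untreated, and 13.3% and 8.37% with IFN. DESeq2 called 2 and 2 untreated, and 4 and 2 with IFN. Not all of them are named. The start of NPC2, a lysosomal cholesterol carrier, was higher by 1.10 and 1.11. NPC1 +136 (1.02) and SOAT1 −1158 (1.53) were higher with IFN. PLTP −23 (1.27) and ELOVL6 +1703 (1.05) were higher untreated. AACS −7904 (−1.45) and −7491 (−1.29), ACACB −9998 (−1.17) and −8367 (−1.13), NR1H3 −6270 (−1.44) and RXRA −2527 (−1.76) were lower with IFN. Untreated, AACS −7491 (−1.68), ACACB −9998 (−1.30) and NR1H2 −1551 (−1.77) were lower.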

How the data were processed

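H3K27ac ChIP-seq was analysed in 8 libraries, 2 for each of 4 groups. The matching input libraries and NSDHL were not analysed here. Per the labels and the methods of the study, paired-end reads were mapped to hg38 with Bowtie2, and the authors counted tags with HOMER in windows of 1000 bp placed on merged ATAC-seq peaks (versions not given). The deposited values are expected counts without normalization: each mate weighs 0.5, and 52.248% of the values are whole. They were rounded to whole numbers (0.5 upward). The 123276 regions that reached 10 counts in 2 or more libraries were tested with edgeR 4.0.16 in R 4.3.3, in 1 quasi-likelihood fit over the 4 groups with TMM factors, and p-values were adjusted by Benjamini-Hochberg within each of 5 comparisons. The smallest library held 9082433 rounded counts, and the common biological coefficient of variation was 0.07375. This spread between 2 libraries a group, and the counts themselves, set the precision, and intervals from counts cover counting error only.

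The genes and lists were chosen with earlier results of these data known. The genes named in the text are the window nearest the start of each gene and every region called in a comparison, and further regions and genes were named after their values were seen. DESeq2 1.42.0, other scalings and filters and leaving out each library were tried as alternatives. Leaving out a library outside the groups compared acts only through the filter, the scaling and the shared spread. Such runs are a weak check of a comparison. The median of all tested regions within 5000000 bp was taken as a regional value, an alternative added after seeing the data. Nearest starts are those of the deposited annotation, and sequence was read from hg38. The scripts were tested on simulated data. Same-numbered libraries of different groups did not deviate together (correlations from 2.15e-05 to 0.0783). A few items are not reported here.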

Additional observations from a re-analysis of the deposited data

Results flagged for a closer look

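At 13 regions the IFN effect differed between USP18−/− and WT cells at an adjusted p under 0.05 in edgeR's test of the difference, over 2 libraries a group. These were 8 larger (8.79%) and 5 smaller (5.49%) of 91, against 6.84% and 5.22% of all regions and 7.76% and 4.99% of those within 10000 bp of a start. It was larger in USP18−/− cells, on the log2 scale, by 2.61 at TM7SF2 −6718, 1.20 at LPIN1 +5859, 1.12 at LPIN1 +5500, 0.96 at LPIN1 +5192, 1.05 at PMVK +54, 0.57 at STARD4 −58, 0.49 at GGPS1 −97 and 0.43 at GGPS1 +365. The differences were −1.32 at FADS1 +54, −1.17 at ABCG1 −78, −0.64 at FADS2 −94, −0.60 at FADS2 +6796 and −0.44 at FASN −121. The 3 LPIN1 windows overlap in a chain, as do the GGPS1 pair, so the 13 are not separate observations. FADS1 +54 and LPIN1 +5859 stayed called under every alternative run for them (16 and 15), and TM7SF2 −6718 was lost without USP18−/− IFN replicate 1 or WT untreated replicate 2.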

How the results depend on the processing

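Counts of called regions are given as higher and lower. No call of a single region reversed: of the single regions' values under an alternative, 490 kept their call and 82 lost it with the direction kept. For the set as a whole, the direction with the larger count and the sign of the median did change with some scalings, as given below. The lack of calls for IFN in WT cells held under every alternative that keeps the fold threshold, and with no fold threshold 1 region was higher. Without that threshold the counts were 19 and 15 for IFN in USP18−/− cells, 29 and 7 between untreated genotypes, 33 and 14 with IFN, and 8 and 5 for the difference of IFN effects. Scaled by the sum of counts they were 5 and 5, 2 and 1, 4 and 9, and 2 and 3, in the same order, and tag directory totals gave 4 lower for IFN in USP18−/− cells. Regions near starts scaled and tested alone gave 1 and 2, 2 and 1, 1 and 4, and 1 and 2, of fewer regions tested. Keeping members within 3000 bp gave 1 higher for IFN in USP18−/− cells, 0 lower between untreated genotypes, 5 and 2 with IFN and 1 higher for the difference. Loess offsets gave 5 and 4 with IFN between genotypes, and DESeq2, which gave no adjusted p for 9 to 30 of the 91 regions by comparison, gave 1 lower for the difference. Leaving out 1 library moved the lower count for IFN in USP18−/− cells between 1 and 3, the lower count between untreated genotypes between 0 and 1, the higher count with IFN between 6 and 9, and the difference between 2 and 5 higher and 1 and 2 lower. The median of the members between genotypes was 0.11 untreated with regions near starts scaled alone, and with IFN −0.03 by the sum of counts and 0.03 near starts. The replicate block changed no count of calls (6 and 1, 4 and 1, 9 and 7, 4 and 2), and the libraries share only a number. The fit on only the groups compared was not run for the difference. The cause of each change was not tested.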
